A study of Rattus norvegicus with 24 samples.

Results

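Pericytes and vascular smooth muscle cells, together called mural cells, wrap the outside of blood vessels. The genes described here are a set of 7 that are commonly used to recognise them: Pdgfrb, Rgs5, Acta2, Myh11, Tagln, Vtn and Notch3. They were taken by symbol from the gene counts of all 24 libraries of the series. Of the 7, 6 are in both count tables, which list 14073 gene names in females and 14077 in males, and all 6 passed the filter on low counts in every comparison. Acta2 was not analysed here.

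The study asked how a maternal high fat diet alters the hypothalamic transcriptome of neonatal Sprague Dawley rats. Whole hypothalamus was taken at postnatal day 10 (PN10) from 4 groups of 6 pups: daughters and sons of dams fed a control diet with 12% of digestible energy from lipids (CON-O), and daughters and sons of dams fed a high fat diet with 43% (HFD-O). Dams ate their diet from before mating until PN10, and pups stayed with their own dams. The litter of each library is not given in the labels, so p-values treat pups as independent. There were fewer control litters than CON-O libraries, so some CON-O pups must be littermates. Library totals ran from 6132112 to 7994399 counts. Libraries are named by group and by the library number in their label. Of 10 listed hypothalamic markers, 9 were in the tables and each had reads in every library, with means from 9.68 CPM (counts scaled to library totals of equal size) for Agrp to 162 CPM for Avp.

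In brain capillaries the endothelium secretes the growth factor Pdgfb, which recruits pericytes through its receptor Pdgfrb. Notch3 is the Notch receptor of mural cells. It is activated by ligands such as Jag1 on endothelial cells and acts with the DNA-binding protein Rbpj, and in arteries it favours smooth muscle maturation. Rgs5 shortens signalling through G protein coupled receptors and is a classical pericyte marker in rodent brain. Myh11 is the smooth muscle myosin heavy chain and Tagln (transgelin, SM22) binds actin in contractile smooth muscle, and both are targets of serum response factor with its partner Myocd. Vtn (vitronectin) is an adhesive glycoprotein of the extracellular matrix and of plasma, made by brain pericytes and in large amounts by liver. In bulk RNA, fewer mural cells and less RNA per mural cell cannot be told apart.

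RefSeq promoters (build GRCr8) were at hand for 3 of the 6 measured members, Vtn, Notch3 and Rgs5, and the 250 bases upstream of the start are shown for all 3. Capitals mark TGGGAA, the core letters bound by Rbpj, and GGGCGG, a GC box, each searched on both strands, so the reverse strand appears as TTCCCA or CCGCCC. The motifs were chosen with results known. The stretches are chr10:63892532-63892781 on the plus strand for Vtn, chr7:11834586-11834835 on the minus strand for Notch3 and chr13:84380827-84381076 on the plus strand for Rgs5.
Vtn: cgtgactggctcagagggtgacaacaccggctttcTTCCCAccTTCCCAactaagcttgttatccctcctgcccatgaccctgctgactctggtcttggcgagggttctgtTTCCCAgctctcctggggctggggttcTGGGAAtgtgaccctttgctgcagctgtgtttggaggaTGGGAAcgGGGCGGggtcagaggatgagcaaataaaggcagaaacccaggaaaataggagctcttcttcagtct
Notch3: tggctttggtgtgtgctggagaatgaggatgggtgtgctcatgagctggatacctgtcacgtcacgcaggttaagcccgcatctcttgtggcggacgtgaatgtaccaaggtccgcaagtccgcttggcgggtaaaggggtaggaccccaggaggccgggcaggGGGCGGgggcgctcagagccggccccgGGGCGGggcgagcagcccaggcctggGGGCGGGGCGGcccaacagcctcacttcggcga
Rgs5: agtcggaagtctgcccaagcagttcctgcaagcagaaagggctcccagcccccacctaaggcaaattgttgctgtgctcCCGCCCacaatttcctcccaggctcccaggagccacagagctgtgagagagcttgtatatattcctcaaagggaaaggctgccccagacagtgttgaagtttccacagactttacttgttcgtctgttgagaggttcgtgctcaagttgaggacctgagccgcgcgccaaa
The Vtn stretch held 5 TGGGAA matches, 2 on the gene's strand and 3 on the other, and 1 GC box. The Notch3 stretch held 4 GC boxes, 2 of which overlap, and the Rgs5 stretch held 1. Neither held TGGGAA. Over 33469 promoters, 22.1% held TGGGAA and 30.5% held GGGCGG in the same 250 bases. The CArG box, the letters that serum response factor binds, was in none of the 3 stretches and in 1.5% of all. These matches describe letters only.

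No member passed the threshold for maternal diet in either sex in the 4 tests fitted here to the counts. In 11409 genes tested in females and 11476 in males, edgeR's quasi-likelihood test with Benjamini-Hochberg adjustment called 0 members, against 0% of all genes in females and 0% in males. At an unadjusted p under 0.05 it picked 1 member in females, Vtn, beside 7.09% of all genes (809), and 0 members in males, beside 4.93% (566). The likelihood ratio test called 50 genes in females and 0 in males, DESeq2 called 20 and 1 and limma-voom called 0 and 0, and none of these was a member. In the fit over both sexes 22 of 11630 genes (0.189%) were called, none a member, and at an unadjusted p under 0.05 it picked Vtn beside 12.7% of genes. With the counts of consecutively numbered male and female libraries summed, 6 sums against 6, the same test called 0 of 11963 genes, with 928 at an unadjusted p under 0.05.

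The log2 fold change of HFD-O over CON-O was above 0 for 5 of the 6 members in females, where it was above 0 for 49.4% of all genes. It was above 0 for the same 5 in males (49.6% of all genes) and over both sexes (49%), and Notch3 was the exception each time. The median over the 6 members was 0.16 in females, 0.10 in males and 0.13 over both sexes, while the median over all genes tested was -0.0013, -0.00094 and -0.0019. The sexes share no libraries, but some CON-O pups share a litter, within or across the sexes. The sexes may therefore not be independent of each other. The fit over both sexes counts littermates as separate pups, so its p-values may be too small. No set test was run on so few genes.

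**Figure D1:**
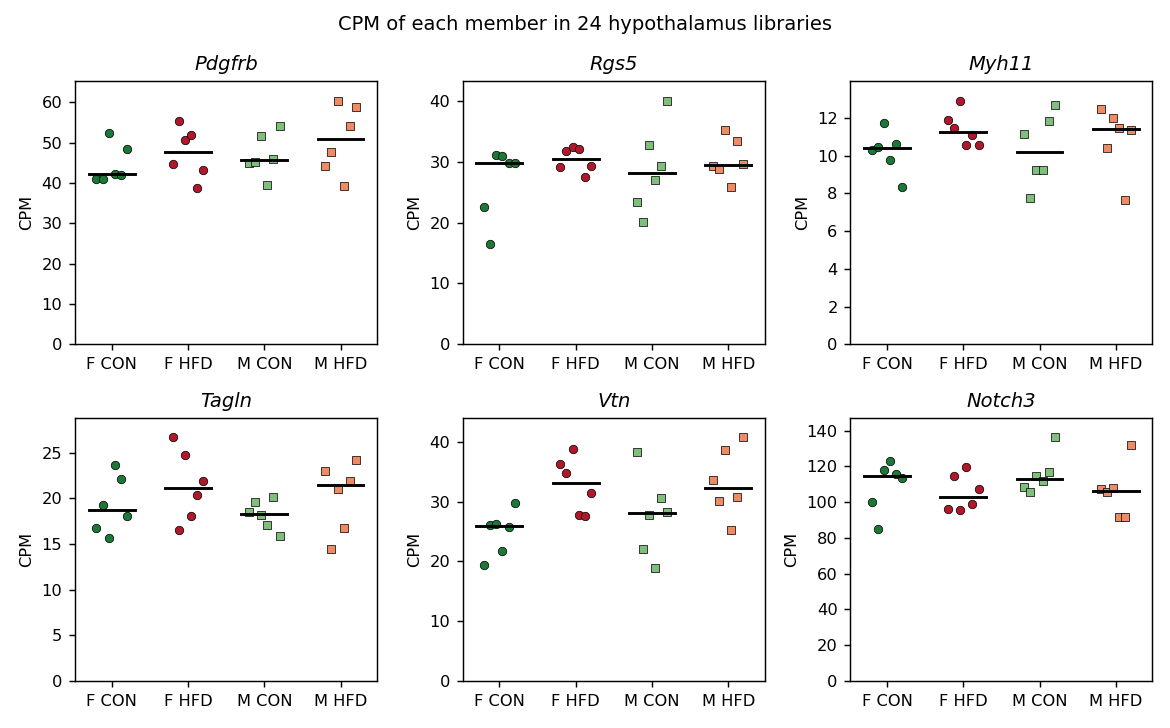
CPM of each member in the 24 libraries. Each point is 1 library, bars are group medians, circles are females (F) and squares are males (M), and each axis starts at 0. The groups overlap in every panel. The female HFD-O points of Vtn lie between 27.7 and 38.8 CPM and the female CON-O points between 19.3 and 29.8 CPM.

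Vtn had the largest difference of the 6 in both sexes. In female CON-O libraries Vtn ran from 19.3 to 29.8 CPM with a median of 25.9, and in female HFD-O from 27.7 to 38.8 CPM with a median of 33.2. All 6 HFD-O values exceeded the CON-O median and 4 exceeded the highest CON-O library, while 5 CON-O libraries lay below the lowest HFD-O library. The log2 fold change was 0.41 (SE 0.11, a fold of 1.32), with an adjusted p of 0.260 by edgeR's quasi-likelihood test. The adjusted p was 0.0648 by the likelihood ratio test, 0.110 by DESeq2 and 0.323 by limma-voom, none below 0.05. An exact permutation test of this 1 gene over the 924 assignments of the 12 libraries, two-sided, gave p = 0.0130, unadjusted over the 12 such tests of 6 members in 2 sexes, where the smallest p it allows is 0.002165.

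In males Vtn ran from 18.9 to 38.3 CPM in CON-O with a median of 28.1, and from 25.2 to 40.8 CPM in HFD-O with a median of 32.3. Here 5 of 6 HFD-O values exceeded the CON-O median and 2 exceeded the highest CON-O library, male CON-O 1, so the groups overlapped more than in females. The diet difference on the log2 scale was 0.26 (SE 0.15, edgeR adjusted p = 0.957) and the exact permutation p was 0.158. The diet effect in males less that in females was -0.14 (SE 0.20, edgeR adjusted p = 1.00), which does not show that the sexes differ or that they are alike. Over both sexes the log2 fold change of Vtn was 0.33 (SE 0.10, edgeR adjusted p = 0.150), and it ranked 169th of 11630 genes by p.

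Library female CON-O 12 stands apart in liver transcripts. Albumin (Alb) had 1861 counts there, 292 CPM, and at most 22 counts in any other library, and Ahsg and Fga, which code for other liver plasma proteins, reached 82.8 and 24.5 CPM. The same library had the highest Vtn of female CON-O, 29.8 CPM. Without it the female log2 fold change of Vtn was 0.46 (edgeR adjusted p = 0.274). Whether liver RNA adds to the Vtn level of that library was not tested.

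Pdgfrb, the receptor that pericytes need for recruitment, was measured at 38.8 to 60.4 CPM over the 24 libraries. In females it ran from 41.0 to 52.4 CPM in CON-O (median 42.1) and from 38.8 to 55.3 CPM in HFD-O (median 47.7). In males it ran from 39.5 to 54.0 CPM in CON-O (median 45.6) and from 39.2 to 60.4 CPM in HFD-O (median 50.8). The HFD-O libraries of either sex reached both below and above the CON-O range. HFD-O over CON-O came to a log2 fold change of 0.09 (SE 0.09) in females and 0.12 (SE 0.10) in males, with edgeR adjusted p of 0.845 and 0.963.

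Among CON-O libraries Rgs5 had the largest SD relative to its mean of the members. It ran from 16.6 to 31.1 CPM in female CON-O (SD 22.2% of the mean) and from 20.1 to 40.1 CPM in male CON-O (24.7%, with Vtn at 24.5%). Among HFD-O libraries its relative SD was the smallest of the members, 6.56% in females and 11.2% in males. The median of female CON-O was 29.8 CPM, and female HFD-O ran from 27.5 to 32.4 CPM (median 30.5). The 2 female CON-O libraries below the HFD-O range were numbers 2 and 4, and the other 4 lay among the HFD-O libraries. The median of male CON-O was 28.2 CPM, and male HFD-O ran from 25.8 to 35.3 CPM (median 29.5), so that the HFD-O libraries lay within the CON-O range. The log2 fold change was 0.18 (SE 0.12, edgeR adjusted p = 0.787) in females and 0.08 (SE 0.13, edgeR adjusted p = 0.983) in males.

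Notch3 was the only member with a log2 fold change below 0. In females it ran from 85.2 to 123 CPM in CON-O (median 115) and from 95.7 to 120 CPM in HFD-O (median 103), so the HFD-O libraries lay within the CON-O range. In males it ran from 106 to 136 CPM in CON-O (median 113) and from 91.7 to 132 CPM in HFD-O (median 107). Female HFD-O 20 and male HFD-O 23 alone among HFD-O exceeded the CON-O median of their sex. The diet difference on the log2 scale was -0.05 (SE 0.08) in females and -0.12 (SE 0.08) in males, with edgeR adjusted p of 0.915 and 0.957.

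The contractile genes Myh11 and Tagln mark the smooth muscle of arterioles more than capillary pericytes. Myh11 had the fewest reads of the set, 51 to 92 counts a library. In females it ran from 8.32 to 11.7 CPM in CON-O (median 10.4) and from 10.6 to 12.9 CPM in HFD-O (median 11.3), and all 6 HFD-O values exceeded the CON-O median, with 2 above the highest CON-O library. HFD-O over CON-O came to a log2 fold change of 0.17 (SE 0.10, edgeR adjusted p = 0.770) and the exact permutation p was 0.0541. In males it ran from 7.75 to 12.7 CPM in CON-O (median 10.2) and from 7.67 to 12.5 CPM in HFD-O (median 11.4), nearly the same range, with a log2 fold change of 0.08 (SE 0.14, edgeR adjusted p = 0.985).

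Tagln ran from 15.7 to 23.7 CPM in female CON-O (median 18.7) and from 16.6 to 26.7 CPM in female HFD-O (median 21.1). In males it ran from 15.8 to 20.1 CPM in CON-O (median 18.3) and from 14.5 to 24.2 CPM in HFD-O (median 21.4). The male HFD-O libraries were the more spread, with 4 above the highest CON-O library and 1 below the lowest. The log2 fold change was 0.15 (SE 0.13) in females and 0.15 (SE 0.12) in males, with edgeR adjusted p of 0.822 and 0.957. The log2 ratio of Tagln to Pdgfrb, a contractile gene over a receptor of all mural cells, was used because Acta2 was not at hand. It differed by 0.06 between the diets in females (exact permutation p = 0.792, two-sided) and by 0.03 in males (exact permutation p = 0.881), less than the SD within any group, 0.23 to 0.38.

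**Figure D2:**
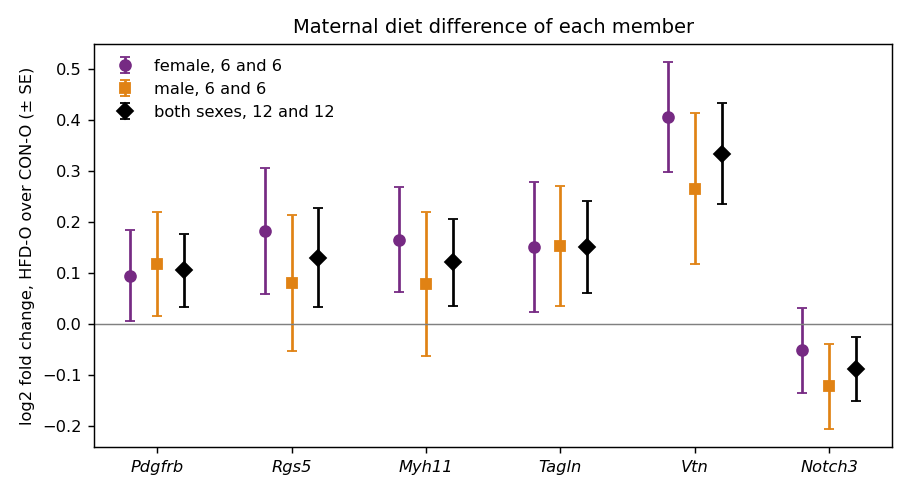
Log2 fold change of HFD-O over CON-O for each member from edgeR's quasi-likelihood fit, in females (circles), males (squares) and both sexes (diamonds). Bars are 1 SE. Vtn lies highest at 0.41, 0.26 and 0.33 and Notch3 is below 0 in all 3 fits, and no value passed adjusted p 0.05.

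No member was called for sex. The male over female log2 fold change lay between -0.08 for Tagln and 0.09 for Vtn, with edgeR adjusted p of 1.00 each, where 4 of 11630 genes (0.0344%) were called for sex and 1.87% had an unadjusted p under 0.05. For the difference between the sexes in the diet effect 0% of genes were called, 1.53% (178) had an unadjusted p under 0.05 and 0 members did. DESeq2, the likelihood ratio test and limma-voom called 0 genes there.

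Within groups each member varied more than the median gene, a comparison that was not matched for level. The SD of log2 CPM within groups was 0.27 for Rgs5, 0.26 for Vtn, 0.23 for Tagln, 0.20 for Myh11, 0.19 for Pdgfrb and 0.17 for Notch3, against a median of 0.15 over all genes tested. Counting error alone, at the mean counts seen, would give 70.4% of this variance for Myh11 and 28.8% for Tagln, and between 9.89% and 17.8% for the other 4. Most of the spread of Myh11 between libraries was thus of the size that counting error gives.

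To see whether the members followed each other, log2(CPM + 0.5) was centred within the 4 groups and correlated over the 24 libraries for the 15 pairs. All libraries share the normalization of CPM to the library total. Permutation p-values kept libraries within their group, with 100000 draws, and were adjusted over the 15 pairs. The median r was 0.219, with a range from -0.0542 to 0.674 and 11 of 15 above 0, and the median over all pairs of tested genes was -0.0003158. Of all pairs, 5% lay below -0.503 and 5% above 0.506.

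The signalling regulator Rgs5 varied between libraries with each of the receptors Notch3 and Pdgfrb. Rgs5 and Notch3 had r = 0.674 (permutation p = 0.00094, adjusted 0.00848) and Spearman coefficient = 0.636 (permutation p = 0.00151, adjusted 0.0113). Female CON-O 4 was lowest for both and male CON-O 11 was highest for both. Without female CON-O 4 and male CON-O 3, the libraries farthest from the median in Rgs5, r was 0.537, with male CON-O 11 still included. Over all libraries of 1 sex r was 0.854 in females and 0.494 in males. Pdgfrb and Rgs5 had r = 0.572 (permutation p = 0.00113, adjusted 0.00848) and Spearman coefficient = 0.654 (permutation p = 0.0004, adjusted 0.006), and r was 0.529 without male HFD-O 17 and 19.

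Pdgfrb and Vtn had r = 0.552 (permutation p = 0.00865, adjusted 0.0433) and Spearman coefficient = 0.577 (permutation p = 0.00692, adjusted 0.0346), with r = 0.450 without male HFD-O 17 and 19. Pdgfrb and Notch3 had r = 0.533 (permutation p = 0.0144, adjusted 0.0540) and Spearman coefficient = 0.530 (permutation p = 0.0168, adjusted 0.0630), which missed the threshold once adjusted, with r = 0.498 without the same 2 libraries. These 4 pairs had r between 0.463 and 0.854 in females and between 0.494 and 0.620 in males.

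Tagln had r close to 0 with the receptors. Its r was -0.0542 with Pdgfrb, -0.0111 with Rgs5, -0.0479 with Notch3 and -0.00873 with Myh11, the other contractile gene, each with an adjusted permutation p of 0.970. With Vtn it was 0.324 (permutation p = 0.112, adjusted 0.281). The r of Tagln and Pdgfrb was -0.480 in females and 0.335 in males. For Myh11 the highest r was 0.393 with Vtn (permutation p = 0.112, adjusted 0.281).

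**Figure D3:**
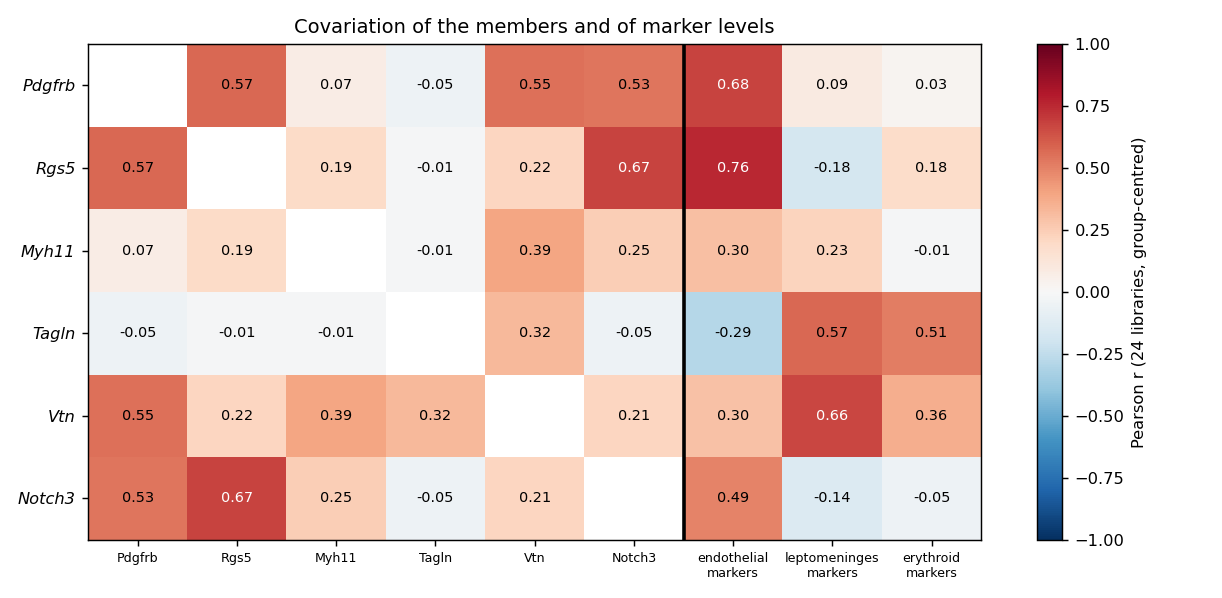
Pearson r of log2 CPM, centred within the 4 groups, over 24 libraries. The left block compares the members with each other and the right block compares them with the mean log2 level of marker genes of endothelium, leptomeninges and red cells. Rgs5 and Notch3 stand at 0.67, and Tagln is near 0 with 4 of the 5 other members.

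Some libraries were high or low for several members. Male HFD-O 17 was above its group mean for all 6 members, and male CON-O 7 and female HFD-O 22 for 0 of the 6. Male HFD-O 23 ranked among the 3 highest of 24 libraries for 4 members (Vtn, Notch3, Pdgfrb and Tagln). Male CON-O 11 ranked among the 3 highest for Rgs5, Notch3 and Myh11, yet was 22nd for Tagln.

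Levels of endothelial and leptomeningeal markers each varied with some of the members, and levels of neurons and glia were not set beside them. The difference between 2 such r values was not tested. A mean log2 level was taken for 14 endothelial, 18 leptomeningeal and 6 red cell markers, and 18 relations with the members were tested by permutation within groups and adjusted together. With the endothelial level, r was 0.756 for Rgs5 (permutation p = 2e-05, adjusted 0.00036), 0.679 for Pdgfrb (permutation p = 0.00011, adjusted 0.00099) and 0.493 for Notch3 (permutation p = 0.00779, adjusted 0.0280). Without male CON-O 11 and male CON-O 5, the libraries farthest from the median in the endothelial level, these were 0.667, 0.651 and 0.420. The Spearman coefficient was 0.769 (permutation p = 2e-05), 0.678 (permutation p = 0.00011) and 0.497 (permutation p = 0.0126), with adjusted values of 0.00036, 0.00099 and 0.0378.

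With the leptomeningeal level, r was 0.665 for Vtn (permutation p = 0.00172, adjusted 0.0103) and 0.573 for Tagln (permutation p = 0.00521, adjusted 0.0234). The Spearman coefficient was 0.620 for Vtn (permutation p = 0.00409, adjusted 0.0189) and 0.594 for Tagln (permutation p = 0.00419, adjusted 0.0189). Without male HFD-O 23 and male CON-O 1, which were the 2 libraries richest in leptomeningeal transcripts beyond their group, r was 0.533 for Vtn and 0.574 for Tagln. For Pdgfrb, Rgs5 and Notch3 the r with this level lay between -0.175 and 0.0899. Tagln also had r = 0.511 with the red cell level (permutation p = 0.0214, adjusted 0.0641; Spearman coefficient = 0.553, permutation p = 0.0102, adjusted 0.0367), and r was 0.541 without male HFD-O 21 and male CON-O 1.

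**Figure D4:**
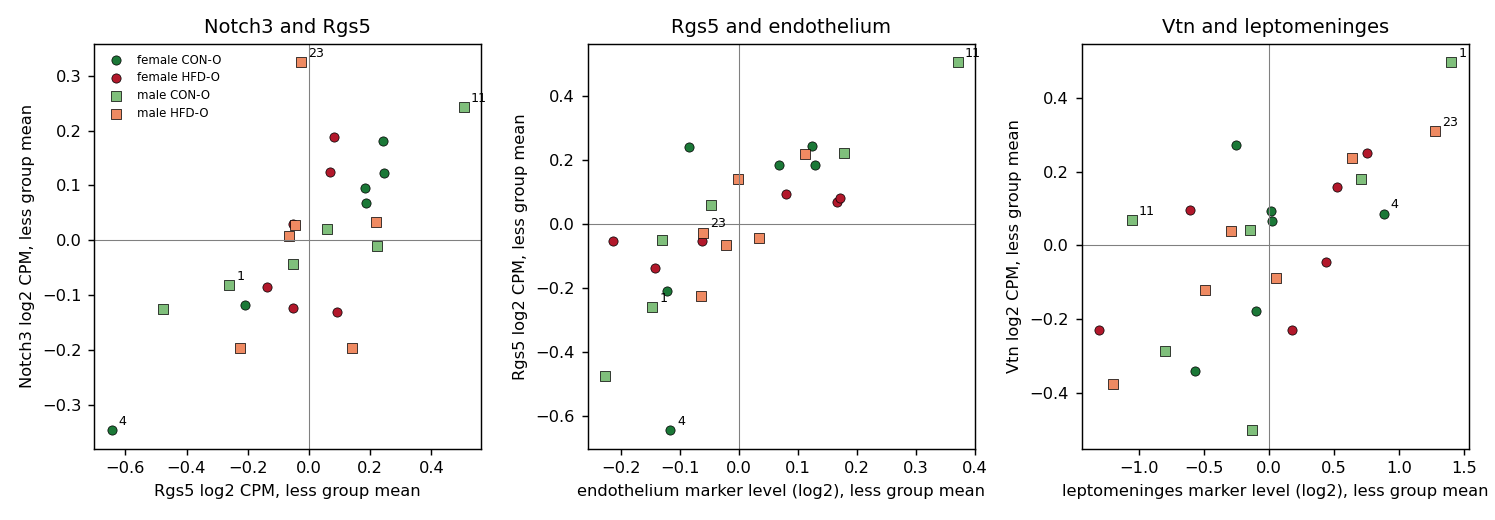
Values of the 24 libraries less their group mean, on log2 scales, for Notch3 against Rgs5, Rgs5 against the endothelial marker level, and Vtn against the leptomeningeal marker level. Circles are females and squares males, and libraries 1, 4, 11 and 23 are numbered. Female CON-O 4 and male CON-O 11 lie at opposite ends for Rgs5, and male CON-O 1 and male HFD-O 23 lie at the upper right for Vtn.

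The same markers are given by diet beside the diet difference of the members. Their lists were chosen with earlier results of these data known. They include genes that the study itself called for diet in females, so the counts below were partly fixed in advance. By edgeR's quasi-likelihood test 0% of all genes were called in either sex. An unadjusted p under 0.05 was reached by 7.09% in females and 4.93% in males, and 49.4% and 49.6% were above 0. All 18 leptomeningeal markers were higher in female HFD-O (median log2 fold change 1.10) and 17 of 18 in male HFD-O (median 0.77). In females edgeR's quasi-likelihood test called 0 of them, with 17 at an unadjusted p under 0.05, while the likelihood ratio test called 12, DESeq2 4 and limma-voom 0. In males 0 were called by each of the 4 tests, with 5 at an unadjusted p under 0.05 by the quasi-likelihood test. Their summed level ran from 218 to 946 CPM in female CON-O and from 344 to 2005 CPM in female HFD-O, and in males from 231 to 1985 CPM in CON-O and from 340 to 2994 CPM in HFD-O. Of the 14 endothelial markers 12 were higher in females (median 0.19, 5 at an unadjusted p under 0.05 by edgeR's quasi-likelihood test) and 13 in males (median 0.13, 0 at that p), and each of the 4 tests called 0 in either sex. They had summed levels of 488 to 599 CPM in female CON-O, 531 to 691 CPM in female HFD-O, and, in males, 505 to 706 CPM in CON-O and 557 to 646 CPM in HFD-O. All 6 red cell markers were higher in females (median 1.40, 6 at an unadjusted p under 0.05) and in males (median 0.60, 0 at that p), with 0 called by the 4 tests, and their summed level ran from 655 to 1983 CPM in female CON-O, 791 to 6304 CPM in female HFD-O, and, in males, 543 to 3677 CPM in CON-O and 559 to 5877 CPM in HFD-O. None of the leptomeningeal, endothelial or red cell markers was at 0 in any library. All 3 tested markers of border macrophages were also higher, with a median of 0.80 in females, where the likelihood ratio test called 1 and the other tests 0, and 0.44 in males, where each test called 0. Over both sexes each of the 4 tests called 1 of them, Lyve1 (0.53, quasi-likelihood adjusted p = 0.0376), where 0.189% of all genes were called. Of the leptomeningeal markers the likelihood ratio test called 9 there, DESeq2 4, and the other tests 0. That fit counts littermates as separate pups. With libraries summed over consecutive numbers, the quasi-likelihood test called 0 genes.

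With the leptomeningeal level as a term in the fit, the log2 fold change of Vtn was 0.23 in females and 0.06 in males. Tagln then stood at -0.12 and Notch3 at 0.14 in females, both with their direction turned. With the endothelial level as a term Vtn stood at 0.29 in females and 0.22 in males, while Pdgfrb turned to -0.12 and Rgs5 to -0.0046 in females, and Rgs5 to -0.096 and Myh11 to -0.0044 in males. No value was called in these fits. Both marker levels had higher medians in HFD-O than in CON-O of the same sex. The leptomeningeal list holds genes that the study called for diet, so changes under that term were partly fixed in advance. These fits cannot separate diet from the share of other cells. The part that other cells have in the diet difference of each member was not tested.

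The genes that most resembled each member over the 24 libraries were taken from all tested genes by the same centred r, as a description with no test, since each is the highest of 11629. For Rgs5 they were Slc6a11, a GABA transporter of glia (r = 0.927), Dennd5a, a Rab exchange factor (0.899), and Inppl1, an inositol phosphatase (0.897). The member nearest to Rgs5, Notch3, ranked 183rd. For Notch3 they were the protocadherin Pcdhgc3 (r = 0.841), the dystroglycan gene Dag1 (0.830) and Ssfa2 (0.825), and Rgs5 ranked 91st. For Pdgfrb they were the catenin Ctnna1 (r = 0.761), Sh3tc1 (0.754) and Arhgef15, a gene of endothelium (0.753), and Rgs5 ranked 139th.

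For Vtn the nearest were Lum, a small leucine-rich proteoglycan that is among the leptomeningeal markers (r = 0.879), Nid2, a basement membrane nidogen (0.874), and Kcnab3, a potassium channel subunit (0.839). A further 2 leptomeningeal markers, Mgp (0.823) and Dcn (0.801), were among its 10 nearest, and Pdgfrb ranked 189th. For Tagln they were the importin Ipo7 (r = 0.753), Lmod1, the leiomodin of smooth muscle (0.750), and MGC108823 (0.735). For Myh11 they were Fn3krp, a deglycating kinase (r = 0.842), Rcn3, a calcium-binding protein of the endoplasmic reticulum (0.707), and the kinase Wnk4 (0.690).

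Related genes bear on how far reads could be shared. Tagln2, the transgelin of many cell types, had a mean of 56.1 CPM and a log2 fold change of 0.23 in females (SE 0.08, edgeR adjusted p = 0.496) and 0.16 in males (SE 0.06, edgeR adjusted p = 0.949). Myh9, a non-muscle myosin related to Myh11, had 100 CPM and 0.28 in females (SE 0.08, with adjusted p of 0.325 by edgeR's quasi-likelihood test, 0.117 by its likelihood ratio test, 0.172 by DESeq2 and 0.347 by limma-voom) and 0.22 in males (SE 0.10). Myh10 (452 CPM), Tagln3 (142 CPM), Acta1 (19.6 CPM) and Actb (2034 CPM) had log2 fold changes between -0.07 and 0.07. Actg2, the enteric smooth muscle actin, was close to 0 with a mean of 0.142 CPM. How the authors' counting treated reads that fit several of these genes is not given in the sources used here.

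Other pericyte genes and contractile genes were read from lists chosen with earlier results known, and called here and below means by edgeR's quasi-likelihood test, with other tools named where they called a gene. Of 18 other pericyte genes 17 were tested, and 12 were higher in female HFD-O and 9 in male HFD-O (median log2 fold change 0.16 and 0.01, 0 called in each, with 4 and 2 at an unadjusted p under 0.05). Beside this and the later lists stand the shares over all genes, 0% called in either sex. Of all genes 49.4% were higher in females and 49.6% in males, and 7.09% and 4.93% had an unadjusted p under 0.05. The most abundant were Cspg4, the NG2 proteoglycan shared with oligodendrocyte precursors (88.7 CPM; 0.28 in females and 0.04 in males), and Zic1 (52.2 CPM; 0.06 and -0.10). Kcnj8 and Abcc9, the pore and sulfonylurea subunits of a potassium channel of pericytes, stood at 0.08 and -0.04 in females and -0.07 and -0.12 in males. The largest differences of the list, named after their values were seen, were in Tbx18, a T-box factor of mural cells (2.97 CPM; 0.88 and 0.63), and Lamc3, a laminin chain (13.1 CPM; 0.65 and 0.55). In females Lamc3 had an adjusted p of 0.214 by edgeR's quasi-likelihood test, 0.0134 by its likelihood ratio test, 0.0257 by DESeq2 and 0.214 by limma-voom, and no other gene of the list was called by any of them in either sex alone. Over both sexes the likelihood ratio test called 2 of the list, Lamc3 (adjusted p = 0.00892) and Tbx18 (adjusted p = 0.0422). DESeq2 called Lamc3 there (adjusted p = 0.00965), and the quasi-likelihood test and limma-voom called 0. The likelihood ratio test and DESeq2 each called 93 of all 11630 genes in that fit. Atp13a5, an ATPase of brain pericytes, stood at 0.47 and 0.13, and the factor Ebf1 at 0.37 and 0.41.

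Of 16 other contractile genes measured, 13 were tested, of which 11 were higher in female HFD-O and 10 in male HFD-O (median 0.15 and 0.21, 0 called in each). The most abundant, Tpm1 (tropomyosin, 234 CPM) and Flna (filamin, 92.1 CPM), stood at -0.03 and 0.15 in females and -0.02 and 0.21 in males. Des, the intermediate filament desmin, was low (1.76 CPM) and stood at 0.26 in females and 0.74 in males (SE 0.24, edgeR adjusted p = 0.949). Cnn1, the smooth muscle calponin, had 0 to 5 counts a library and was not tested.

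**Figure D5:**
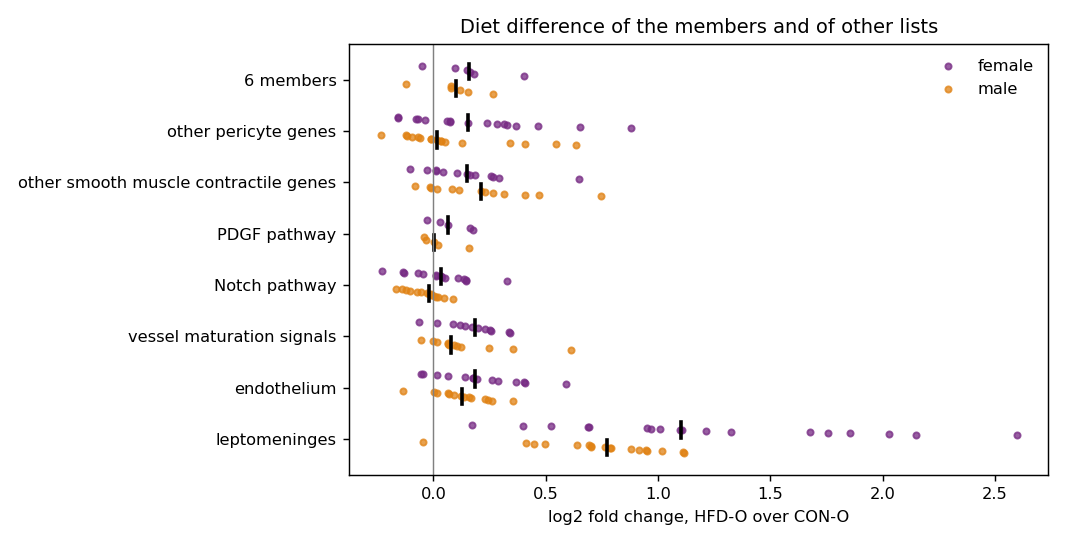
Log2 fold changes of HFD-O over CON-O for the 6 members and for lists of related genes, females above and males below in each pair. Each point is 1 gene and each black bar is a list median. Lists were chosen with earlier results of these data known. The members' medians are 0.16 and 0.10, and those of the leptomeningeal markers 1.10 and 0.77.

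No gene upstream of the members was called for diet in either sex, where 0% of all genes were called. In the PDGF pathway 4 of 5 genes were higher in females and 3 of 5 in males (median 0.07 and 0.0033, 0 called). Pdgfb, the endothelial ligand of Pdgfrb, had 31.6 CPM with 0.18 in females (SE 0.08, not called) and -0.04 in males, and Pdgfra, the other receptor and a marker of oligodendrocyte precursors, had 312 CPM with 0.07 and -0.03. Of 15 Notch pathway genes 10 were higher in females and 5 in males (median 0.03 and -0.02, 0 called). Jag1 stood at 0.33 in females (SE 0.14, not called) and 0.01 in males, and Heyl, a Notch target of mural cells, at 0.03 and 0.05.

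In the serum response factor axis 3 of 4 tested genes were higher in females and 1 of 4 in males, with Srf itself (42.7 CPM) at -0.04 and -0.05, and Myocd, at 1 to 7 counts a library, was not tested. Of 5 integrin and partner genes of vitronectin tested, 4 were higher in females and 3 in males, with the integrin beta chains Itgb1 (256 CPM) at 0.07 and 0.08 and Itgb5 (125 CPM) at 0.12 and 0.05. Of 5 small RGS genes tested beside Rgs5, 3 were higher in females and 1 in males, with Rgs4 (202 CPM) at 0.06 and -0.03. Of 12 signals of vessel maturation 11 were higher in females and 10 in males (median 0.19 and 0.08, 0 called), with the sphingosine phosphate receptor S1pr1 (136 CPM) at 0.09 and -0.0033.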

How the data were processed

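RNA from whole hypothalamus of 24 pups was sequenced. The authors used a TruSeq RNA kit, FastQC, Trimmomatic, Bowtie2 and edgeR, and the submitters' processing notes list FastQC, TopHat, edgeR and build rn6. For the counting program, annotation, strand setting and versions nothing was found (not given in the sources used here). Deposited by the authors were whole-number counts per gene for each library, 1 table per sex. Their scaled columns and their own comparison columns (fold changes, test statistics, p-values) were not used. Spreadsheet dates replaced 23 and 24 gene names.

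The tests on counts ran under R 4.3.3, namely edgeR 4.0.16 (filterByExpr, minimum count 10 and total 15, TMM, quasi-likelihood test, Benjamini-Hochberg over all genes tested, threshold 0.05), limma 3.58.1 and DESeq2 1.42.0. Each sex was fitted alone, and 24 libraries together with sex, diet and interaction over the 13841 genes in both tables. CPM used TMM factors from 0.981 to 1.018. Correlations used Python 3.11.15 with numpy 2.4.6. The scripts were tested on simulated data. Alternatives were other tests, RLE factors, no filter, marker levels as terms, other pseudocounts, summed libraries and each library left out. The text names the members, the 3 nearest genes of each, and the most abundant or preselected genes of each list. Members and lists were chosen with earlier results of these data known.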

Additional observations from a re-analysis of the deposited data

Results flagged for a closer look

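Each group of 6 libraries was checked for 1 library far from the others, by the gap to its nearest neighbour over the whole range against Dixon's critical value of 0.625. Of 24 groups of the members 1 passed, where chance gives about 1 in 20. Notch3 in male CON-O 11 was 136 CPM, with the next library at 117 CPM. Of 12 groups of liver genes, which were looked at because female CON-O 12 already stood out in them, 4 passed. In female CON-O 12 Alb was 292 CPM, Ahsg 82.8 CPM and Fga 24.5 CPM, with the next libraries at 2.64, 1.32 and 1.37 CPM. Alb in male CON-O 11 was 3.32 CPM, against 0.839 CPM in the next.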

How the results depend on the processing

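No member was called for diet, sex or their interaction under any alternative run: the likelihood ratio test, DESeq2, limma-voom, RLE factors, no filter, marker levels as terms, libraries summed over consecutive numbers (Vtn 0.32, adjusted p = 0.514) or any library left out. Vtn lay between 0.34 and 0.46 in females and 0.17 and 0.38 in males as libraries were left out. Over both sexes the calls among all genes were 22 by the quasi-likelihood test, 93 by the likelihood ratio test, 93 by DESeq2, 18 by limma-voom and 0 with summed libraries, and 3 to 46 with 1 library left out. Directions turned with marker levels as terms: Pdgfrb -0.12, Rgs5 -0.0046 and Tagln -0.12 (leptomeningeal) and Notch3 0.14 (leptomeningeal) in females, Rgs5 -0.096 and Myh11 -0.0044 in males (endothelial otherwise). The interaction of Tagln was -0.00013 by DESeq2 and -0.0089 by limma-voom. With 1 library left out the interaction ran from -0.031 to 0.087 for Pdgfrb, -0.18 to 0.016 for Rgs5 and -0.067 to 0.083 for Tagln. The sex difference ran from -0.0059 to 0.093 for Rgs5 and -0.059 to 0.014 for Myh11, and Rgs5 in males from -0.0029 to 0.20. The cause was not tested. Myh11 over Pdgfrb in males gave -0.024 in place of 0.028. Tagln over Pdgfrb ran from -0.048 to 0.17 in females and from -0.054 to 0.10 in males. The median r of the members was 0.13 in females, 0.42 in males and 0.17 to 0.32 with 1 library left out. No analysis paired across diets was possible because the diet groups share no replicate numbers. The sums over consecutive numbers join a male and a female library within a diet. The tests of sex and of the interaction were not paired on these numbers. At 51 to 92 counts a library, depth limits Myh11.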
